A study of Mus musculus with 15 samples.

Results

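The cytochrome P450 genes of the mouse kidney were described here as all probes of the Illumina MouseWG-6 BeadChip whose gene symbol begins with Cyp and a digit and whose detection p was under 0.05 on at least 3 of 15 arrays. Of 129 such probes for 87 genes on the array, 50 probes for 40 genes met this condition, out of 19027 probes for 10838 named genes that met it in all. Kidney RNA came from male C57BL/6 mice on an AIN-93G diet, 1 mouse per array, with no genetic change in any group. CON 1W (4 arrays, age 4 weeks) and CON 4W (3 arrays, age 7 weeks) drank freely, whereas RES 1W (4 arrays, age 4 weeks) and RES 4W (4 arrays, age 7 weeks) had a water bottle for 15 min a day from weaning at the age of 3 weeks, for 1 week or for 4 weeks, and were killed a day after the last bottle. Food intake was not part of these data. The paper reports that restricted mice ate less than controls at the onset and regained a normal intake after the first week. The part of feeding in the changes given here was not tested.

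Cytochrome P450 enzymes are heme proteins that insert 1 oxygen atom into a lipid or drug. Their electrons come from cytochrome P450 reductase in the endoplasmic reticulum and from ferredoxin in mitochondria. In the kidney most of them sit in the proximal tubule, where they hydroxylate fatty acids, arachidonic acid, steroids and foreign compounds and where vitamin D is activated and inactivated. Several mouse kidney P450 genes differ between the sexes, Cyp4a12a, which is induced by androgens in males, being the best known of them.

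Levels are given as normalized log2 intensities, a scale on which 1 unit is a doubling, and each belongs to 1 probe, so a level of one gene cannot be set against that of another. A gene was read from its brightest probe, and a change was called at an adjusted p under 0.05 in the linear model of limma over all 4 groups (Benjamini-Hochberg adjustment over the 19027 probes). Detected probes numbered 15295 to 17433 per array, and the lowest level counted as detected lay between 4.76 and 4.98. RES 4W replicate 1 stood apart from its group, and its nearest array was CON 4W replicate 3. Its score on the first principal component was -11.9 against 38.6 to 39.5 for RES 4W replicates 2 to 4. Arrays of the other groups scored -12.8 to -6.1, so replicate 1 lay among them and replicates 2 to 4 lay apart from all others. The cause was not tested. Where leaving out RES 4W replicate 1 changed a call, the result is given without it too, which does not mark it as the faulty array. The number of arrays limits the precision, and in whole kidney RNA fewer cells of a type and less RNA per cell cannot be told apart.

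The promoters of 5 genes are printed because their genes form pairs and clusters among those called. Cyp2a4 and Cyp2a5 lie in 1 cluster on chromosome 7 and were both higher at the later age. Cyp2d9, Cyp2d10 and Cyp2d26 of the chromosome 15 cluster were all higher after 1 week of restriction. Not every called gene had a promoter sequence available. Cyp2d22, of the same cluster and also higher after 1 week, had none, nor had Cyp4a12a, Cyp4a14, Cyp7b1 and Cyp24a1. Each window is the RefSeq sequence (build GRCm38.p6) from 250 bases before to 50 bases after the start of the gene, read along the gene. Capitals mark TATAAA, the TATA box, and AGGTCA, the half-site bound by many nuclear receptors, on either strand, so that they also appear as TTTATA and TGACCT.
Cyp2a4 (chr7:26306942-26307241, plus strand): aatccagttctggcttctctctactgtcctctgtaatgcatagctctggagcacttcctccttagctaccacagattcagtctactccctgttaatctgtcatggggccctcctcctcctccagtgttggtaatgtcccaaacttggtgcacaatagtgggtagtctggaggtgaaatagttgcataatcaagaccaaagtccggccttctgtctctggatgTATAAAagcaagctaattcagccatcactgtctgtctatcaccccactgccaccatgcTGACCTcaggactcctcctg
Cyp2a5 (chr7:26835089-26835388, plus strand): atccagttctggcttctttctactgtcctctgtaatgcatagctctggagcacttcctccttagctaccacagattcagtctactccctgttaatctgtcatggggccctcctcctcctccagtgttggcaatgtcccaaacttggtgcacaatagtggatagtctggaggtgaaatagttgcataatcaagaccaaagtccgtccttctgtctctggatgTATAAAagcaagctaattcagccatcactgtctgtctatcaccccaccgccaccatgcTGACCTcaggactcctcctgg
Cyp2d9 (chr15:82452127-82452426, plus strand): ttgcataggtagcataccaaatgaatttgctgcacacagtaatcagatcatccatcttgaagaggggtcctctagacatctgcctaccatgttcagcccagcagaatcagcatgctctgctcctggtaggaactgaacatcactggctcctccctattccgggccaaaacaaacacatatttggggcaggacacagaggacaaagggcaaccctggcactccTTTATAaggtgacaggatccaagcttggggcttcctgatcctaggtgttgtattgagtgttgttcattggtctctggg
Cyp2d10 (chr15:82407145-82407444, minus strand): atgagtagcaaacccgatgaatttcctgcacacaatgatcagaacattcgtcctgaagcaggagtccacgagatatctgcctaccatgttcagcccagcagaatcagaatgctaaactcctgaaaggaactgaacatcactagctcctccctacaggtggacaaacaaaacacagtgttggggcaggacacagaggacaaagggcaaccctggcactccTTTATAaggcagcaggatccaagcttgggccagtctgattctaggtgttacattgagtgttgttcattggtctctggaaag
Cyp2d26 (chr15:82794196-82794495, minus strand): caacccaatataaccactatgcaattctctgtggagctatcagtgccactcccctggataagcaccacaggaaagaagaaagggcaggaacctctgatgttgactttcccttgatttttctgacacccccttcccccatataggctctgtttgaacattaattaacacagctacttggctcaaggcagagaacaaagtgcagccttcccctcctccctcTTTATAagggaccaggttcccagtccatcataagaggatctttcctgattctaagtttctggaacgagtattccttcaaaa

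In a global alignment 98.0% of the 300 bases of Cyp2a4 were identical in Cyp2a5, and 85.0% of those of Cyp2d9 in Cyp2d10. Cyp2d26 shared 62.0% with Cyp2d9 and 63.3% with Cyp2d10, which is near the 59.3% to 61.3% that Cyp2a4 shared with the 3 Cyp2d windows. TATAAA was found in 8 of the 31 windows of the 27 member genes that have one, and in 13.6% of all 32851 windows. It lay 28 to 31 bases before the start of the 5 genes printed. In the 3 Cyp2d windows the match was to its reverse, TTTATA. Read forward, the same stretch runs on as TATAAGG, so the match does not show that the box is reversed. AGGTCA was found in 5 of the 31 windows against 16.3% of all windows, and of the 5 printed only in those of Cyp2a4 and Cyp2a5, downstream of the start. GTTAAT, the half-site of HNF1 factors, was found in 4 of 31 (7.1% of all), and GCGTG, the core that the aryl hydrocarbon receptor binds, in 9 of 31 (32.4% of all). A match is a match of letters only.

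With age, CON 4W against CON 1W, 10 of the 40 genes were higher and 1 was lower, whereas 3.42% of all genes tested were called (1.37% higher, 2.06% lower). The median log2 change of the 40 genes was 0.08, against 6e-04 over all genes. Of the 11 calls, 10 held whichever array was left out, the exception being Cyp2d12. After 1 week of restriction, RES 1W against CON 1W, 6 genes were higher and 2 lower, with 3.4% of all genes called (1.79% higher, 1.61% lower) and medians of 0.08 and -0.001. After 4 weeks, RES 4W against CON 4W, 4 were higher and 3 lower, with 5.83% of all genes called (2.68% higher, 3.15% lower) and medians of -0.01 and -0.017. Without RES 4W replicate 1 this last comparison called 6 of the 40 genes higher and 5 lower, but it then called 21.5% of all genes (9.71% higher, 11.8% lower). Leaving it out also changed the other comparisons, which share its spread: with age 10 were higher and 2 lower (5.15% of all genes, 2.3% higher and 2.85% lower), Cyp2d26 being the one added, and at 1 week 7 were higher and 2 lower (5.07%, 2.68% higher and 2.39% lower), Cyp4a14 being the one added. Groups did not overlap for 21 of the 40 genes with age (18.2% of all genes), for 12 at 1 week (11.3%) and for 10 at 4 weeks (15.3%). The genes called in these comparisons belong to the Cyp2, Cyp4, Cyp7, Cyp24 and Cyp27 families. The age comparison shares its CON 1W arrays with the first restriction comparison and its CON 4W arrays with the second, so opposite signs between them are not independent.

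**Figure D1:**
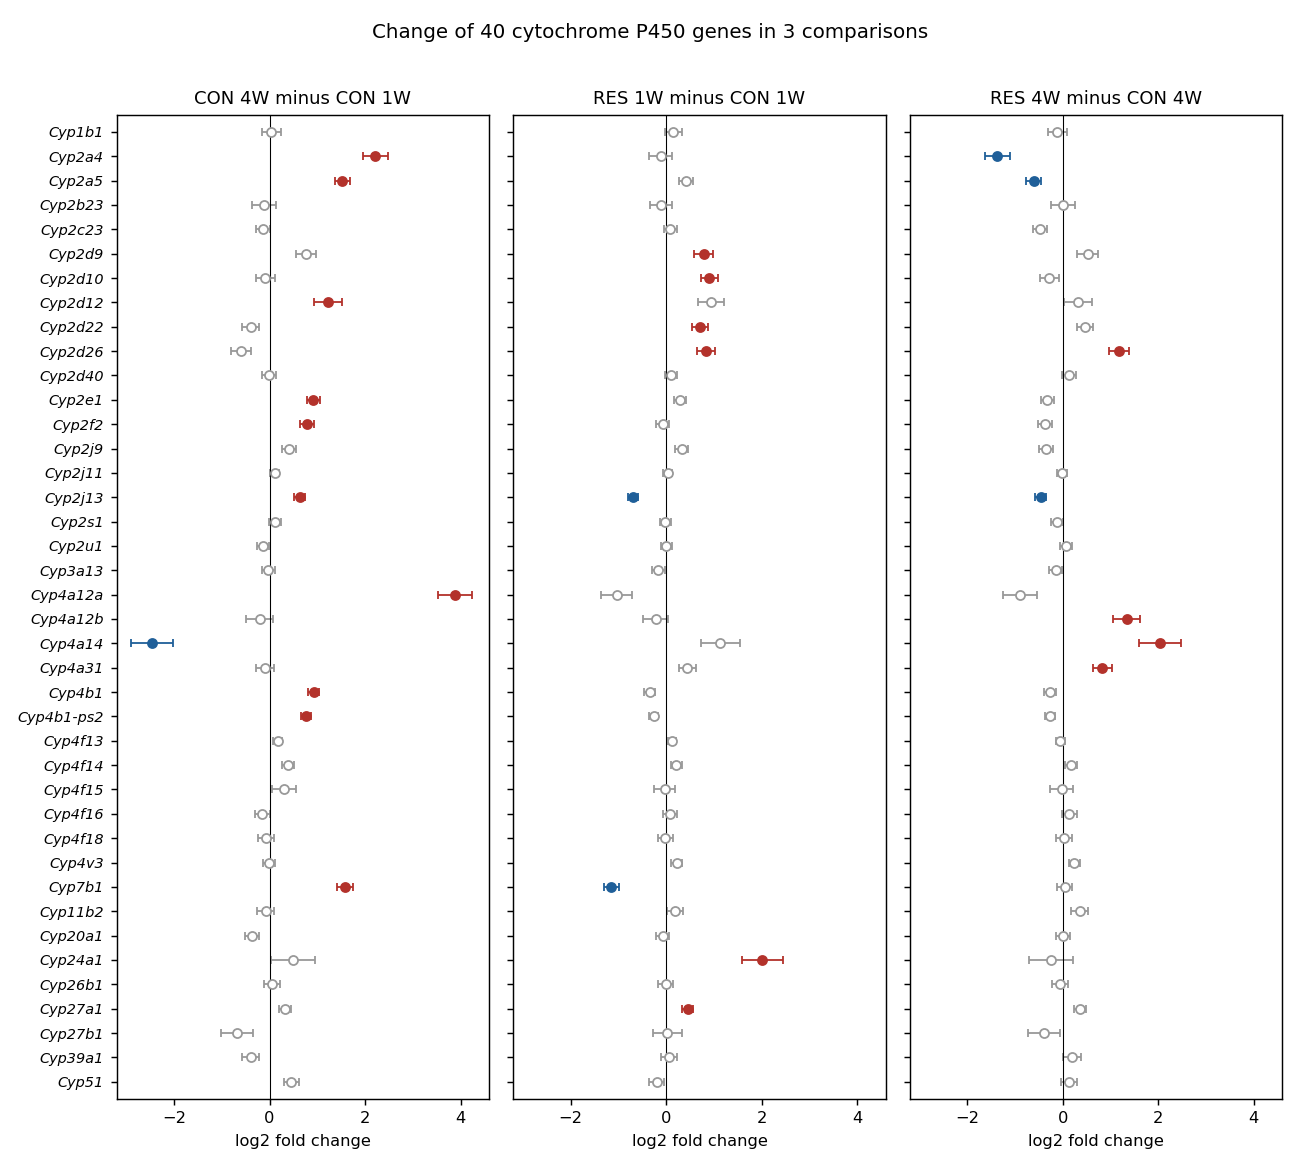
Log2 fold change (horizontal axis) of each of the 40 cytochrome P450 genes, 1 row per gene in family order, in 3 comparisons. Points are the fitted change of the brightest probe and bars its standard error; filled red and blue points are genes called higher and lower at an adjusted p under 0.05, open grey points were not called. Changes run from -2.46 (Cyp4a14) to 3.88 (Cyp4a12a) with age.

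Cyp2a4 and Cyp2a5, steroid and coumarin hydroxylases that are near-identical copies of each other, were higher at the age of 7 weeks and lower after 4 weeks of restriction. The Cyp2a4 probe read 5.01, 4.67, 5.21 and 5.69 in CON 1W, 5.04, 5.07, 5.02 and 5.00 in RES 1W, 7.16, 7.01 and 7.90 in CON 4W, and 6.64, 5.54, 5.82 and 5.96 in RES 4W. All CON 4W arrays lay above all RES 4W arrays, and the RES 4W arrays except replicate 2 lay above every array of the younger mice. The age difference was 4.64-fold (log2 2.21, SE 0.26, limma adjusted p = 0.00013). At 4 weeks restricted mice were 2.58-fold lower (log2 -1.37, SE 0.26, adjusted p = 0.011), or -1.58 without RES 4W replicate 1, the highest of its group, but with CON 4W replicate 3 left out it missed the threshold (adjusted p = 0.051). After 1 week the change was -0.11 (adjusted p = 0.91). The probe was near the detection limit at the age of 4 weeks, with means of 5.15 in CON 1W (detected on 3 of 4 arrays) and 5.03 in RES 1W. A fall at 1 week could therefore hardly be seen, and the age difference may be compressed.

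The brightest Cyp2a5 probe read 10.73, 10.86, 10.80 and 11.10 in CON 1W, 11.28, 11.27, 10.91 and 11.73 in RES 1W, 12.30, 12.52 and 12.38 in CON 4W, and 11.71, 11.66, 11.83 and 11.99 in RES 4W. CON 4W stood above every other group without overlap. The age difference was 2.88-fold (log2 1.52, SE 0.16, adjusted p = 4.9e-05), and all 5 tested Cyp2a5 probes were called higher with age, the other 4 by 0.82, 1.24, 1.94 and 2.001. The dimmest of them was not detected on any CON 1W array and was detected on all 3 CON 4W arrays, a difference of at least 1.46-fold, where the bound sets the dim group at the lowest detected level. For restriction the probes disagreed. At 4 weeks the brightest probe was 1.52-fold lower (log2 -0.60, SE 0.16, adjusted p = 0.035) and the dimmest changed by -0.63 (adjusted p = 0.044), whereas the other 3 probes changed by 0.05, -0.35 and -0.14 with adjusted p-values of 0.93, 0.36 and 0.76. The call of the brightest probe was lost without any 1 of the CON 4W arrays or of RES 4W replicates 2, 3 and 4 (adjusted p = 0.067 to 0.11). Since the 2 genes are so alike, signal of one may be read by probes of the other.

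Cyp2e1, which oxidizes ethanol, acetone and small solvents, and Cyp2f2, which oxidizes naphthalene and is best known from the lung, were also higher at the later age. The Cyp2e1 probe read 13.09, 12.95, 12.96 and 12.82 in CON 1W, 13.28, 13.01, 13.38 and 13.31 in RES 1W, 14.09, 13.74 and 13.79 in CON 4W, and 13.90, 13.52, 13.42 and 13.38 in RES 4W. Every CON 4W array lay above every CON 1W array, by 1.89-fold on average (log2 0.92, SE 0.14, adjusted p = 0.0013). RES 4W overlapped CON 4W through replicate 1 alone: the change was -0.32 (adjusted p = 0.16) with that array and -0.43 (SE 0.12, adjusted p = 0.018) without it. Cyp2f2 was near the detection limit, with a mean level of 4.84 ± 0.23 (SD, n = 4) at 4 weeks of age in controls. Controls at 7 weeks of age averaged 5.63 ± 0.28 (SD, n = 3), a log2 difference of 0.79 (SE 0.15, adjusted p = 0.0065). It was detected on 1 of 4 CON 1W arrays, 2 of 4 RES 1W arrays and all arrays of the older mice. Its changes with restriction were -0.07 and -0.36, with adjusted p-values of 0.9 and 0.13.

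**Figure D2:**
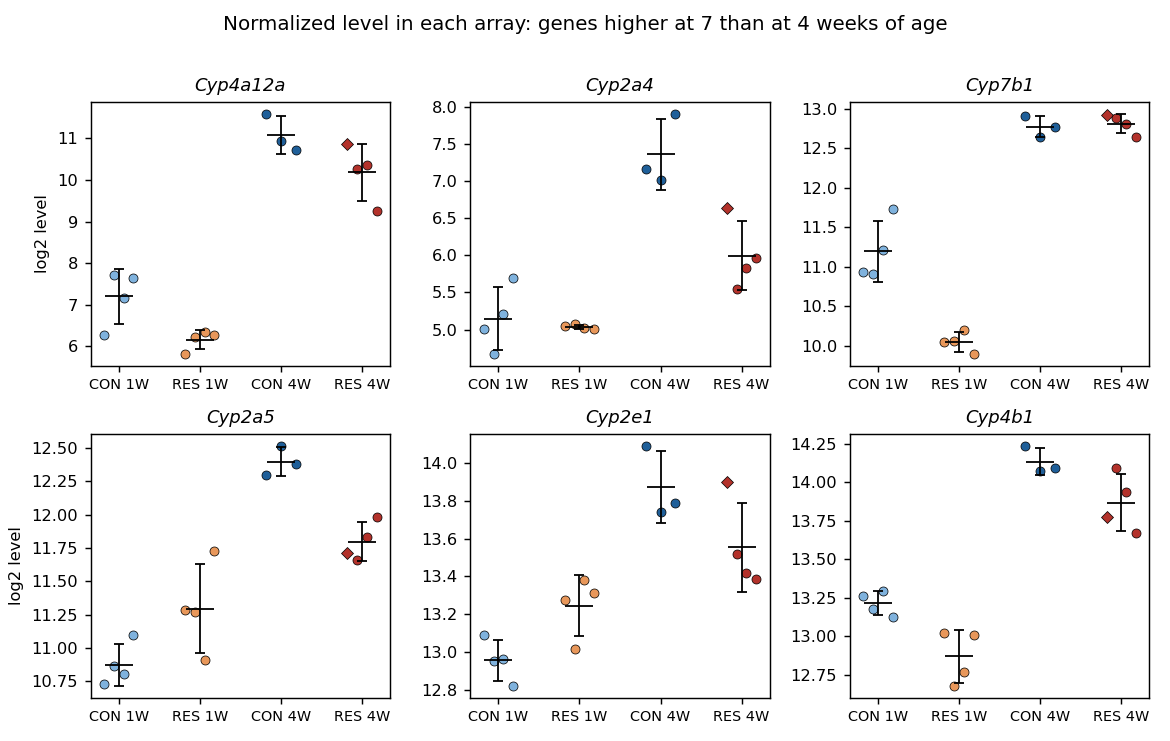
Normalized log2 level (vertical axis, different range in each panel) of 6 genes in each array of the 4 groups. Points are arrays, the diamond is RES 4W replicate 1, and the line with bars is the group mean with its SD. In all 6 panels the 3 CON 4W arrays sit above the 4 CON 1W arrays, and the mean differences run from 0.92 (Cyp2e1, Cyp4b1) to 3.88 (Cyp4a12a).

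The Cyp2d genes, counterparts of the drug-metabolizing human enzyme CYP2D6, were mostly higher after 1 week of restriction. Of the 6 tested (of 8 on the array) 4 were called higher and none lower, against 1.79% and 1.61% of all genes. The Cyp2d26 probe, the brightest of 3 for this gene, read 9.75, 9.69, 9.83 and 9.98 in CON 1W, 10.72, 10.62, 10.42 and 10.84 in RES 1W, 9.08, 9.41 and 9.13 in CON 4W, and 9.65, 10.54, 10.54 and 10.81 in RES 4W. Restricted mice lay above their controls at both ages with no overlap, and RES 4W replicate 1 was the lowest of its group. The rise was 1.79-fold at 1 week (log2 0.84, SE 0.19, adjusted p = 0.023) and 2.26-fold at 4 weeks (log2 1.18, SE 0.20, adjusted p = 0.0097), the latter being 1.42 (SE 0.13, adjusted p = 8.3e-06) without RES 4W replicate 1. At 1 week all 3 of its probes were called, with changes of 0.84, 0.79 and 0.85. At 4 weeks the second probe changed by 1.08 (adjusted p = 0.016), but the third by 0.19 (adjusted p = 0.29).

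Cyp2d10 differed between the 2 durations. Its probe read 6.89, 6.41, 6.73 and 6.72 in CON 1W, 7.69, 7.54, 7.19 and 7.95 in RES 1W, 6.34, 6.84 and 6.63 in CON 4W, and 6.78, 6.19, 6.17 and 6.16 in RES 4W. RES 1W was the highest group without overlap, at 1.87-fold over CON 1W (log2 0.90, SE 0.18, adjusted p = 0.0091), whereas RES 4W was not called against CON 4W (-0.28, adjusted p = 0.38). Leaving out RES 4W replicate 1 gave -0.43 (adjusted p = 0.09). The difference between the 2 effects was -1.18 (SE 0.26) and narrowly missed the threshold (adjusted p = 0.05 after rounding), but it was called without RES 4W replicate 1 (-1.33, adjusted p = 0.0015).

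Cyp2d22 and Cyp2d9, the latter a testosterone hydroxylase typical of male mouse liver, were 1.63-fold and 1.73-fold higher in RES 1W than in CON 1W. The Cyp2d22 probe read 9.06, 9.15, 9.04 and 9.24 in CON 1W and 9.82, 10.07, 9.44 and 9.99 in RES 1W (log2 0.71, SE 0.16, adjusted p = 0.027). The Cyp2d9 probe read 10.26, 10.03, 10.01 and 10.29 in CON 1W and 10.55, 10.81, 10.86 and 11.53 in RES 1W (log2 0.79, SE 0.20, adjusted p = 0.042). In both genes the groups did not overlap. At 4 weeks the changes were 0.47 (adjusted p = 0.11) and 0.52 (adjusted p = 0.14), and without RES 4W replicate 1 that of Cyp2d22 was called (0.61, adjusted p = 0.011). Cyp2d12 was called only with age, from 7.21 ± 0.59 (SD, n = 4) in CON 1W to 8.44 ± 0.41 (SD, n = 3) in CON 4W (log2 1.22, SE 0.30, adjusted p = 0.034). Its change at 1 week of restriction was 0.95 (adjusted p = 0.081). The sixth, Cyp2d40, was not detected on any control array and was not called.

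Single arrays decided several of these calls. At 1 week, Cyp2d22 and Cyp2d26 missed the threshold without any 1 of CON 1W replicates 1, 2 and 3 and RES 1W replicates 1 and 4, Cyp2d22 also without RES 1W replicate 2 (adjusted p = 0.056 to 0.098). Cyp2d9 missed it without any 1 of the CON 1W arrays, RES 1W replicates 2, 3 and 4, CON 4W replicate 2 and RES 4W replicate 3 (adjusted p = 0.054 to 0.13), and Cyp2d12 with age missed it without CON 1W replicates 2 or 3 or CON 4W replicates 1 or 3 (adjusted p = 0.064 to 0.15). Cyp2d10 at 1 week and Cyp2d26 at 4 weeks were called whichever array was left out.

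**Figure D3:**
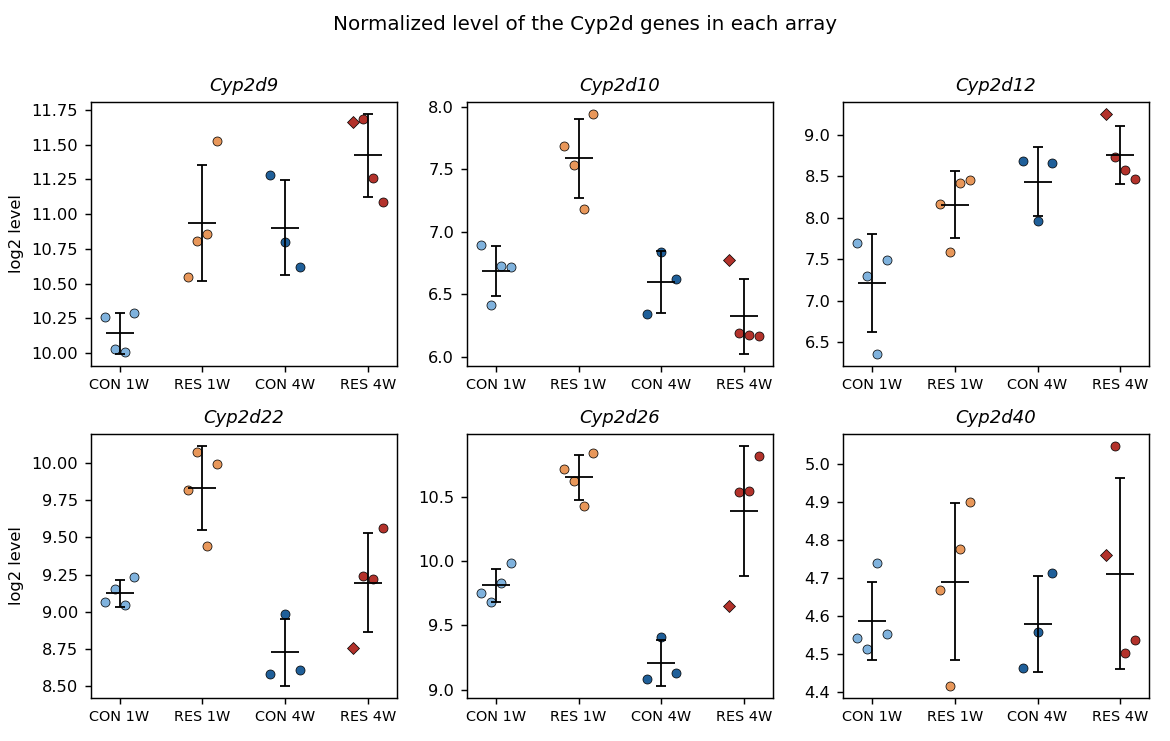
Normalized log2 level (vertical axis, different range in each panel) of the 6 tested Cyp2d genes in each array of the 4 groups. Points are arrays, the diamond is RES 4W replicate 1, and the line with bars is the group mean with its SD. In Cyp2d9, Cyp2d10, Cyp2d22 and Cyp2d26 all 4 RES 1W arrays sit above all 4 CON 1W arrays.

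Of the other xenobiotic hydroxylases, Cyp1b1, Cyp2b23, Cyp2s1, Cyp2u1 and Cyp3a13 were not called in any comparison. Cyp1b1, an estrogen and hydrocarbon hydroxylase, had mean levels between 5.00 and 5.23 in the 4 groups. Cyp3a13, the one Cyp3a gene of 7 on the array that was tested, was detected on 6 of 15 arrays, and its changes were -0.03 with age, -0.16 at 1 week and -0.15 at 4 weeks. The aryl hydrocarbon receptor targets Cyp1a1 and Cyp1a2 and the hepatic Cyp2b10 and Cyp3a11 were each detected on at most 1 array and were not tested.

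The Cyp4a genes encode omega-hydroxylases, which oxidize the end of the fatty acid chain. Some of them turn arachidonic acid into 20-HETE, a vasoactive lipid that acts on tubular salt transport. Of all 40 genes Cyp4a12a had the largest rise with age and Cyp4a14 the only called fall. The Cyp4a12a probe read 6.27, 7.72, 7.17 and 7.64 in CON 1W, 5.82, 6.23, 6.34 and 6.27 in RES 1W, 11.58, 10.94 and 10.71 in CON 4W, and 10.87, 10.27, 10.37 and 9.24 in RES 4W. All arrays of 7-week-old mice lay above all those of 4-week-old mice, and CON 4W was 14.7-fold over CON 1W (log2 3.88, SE 0.36, adjusted p = 2.1e-05). Restricted mice read lower on average at both ages, but the groups overlapped. The change was -1.04 (SE 0.33, adjusted p = 0.12) at 1 week. At 4 weeks it was -0.89 (SE 0.36, adjusted p = 0.13). The first was called without CON 1W replicate 1 (-1.35, adjusted p = 0.027) and the second without RES 4W replicate 1 (-1.12, adjusted p = 0.03).

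Cyp4a14, a well-known target of the fatty acid receptor PPAR alpha, moved the other way with age. Its probe read 10.17, 10.09, 10.16 and 10.23 in CON 1W, 11.04, 11.76, 10.62 and 11.78 in RES 1W, 7.50, 7.49 and 8.12 in CON 4W, and 11.40, 9.59, 9.06 and 8.91 in RES 4W. CON 4W was the lowest group, 5.51-fold under CON 1W (log2 -2.46, SE 0.44, adjusted p = 0.0052), and restricted mice lay above their controls at both ages without overlap. At 4 weeks the rise was 4.10-fold (log2 2.04, SE 0.44, adjusted p = 0.02). RES 4W replicate 1 was the highest of its group, and without it the rise was 2.79-fold (log2 1.48, SE 0.27, adjusted p = 0.00097). Without CON 4W replicates 1 or 2 or RES 4W replicate 2 it missed the threshold (adjusted p = 0.054 to 0.067). At 1 week the change of 1.13 (SE 0.41) was not called (adjusted p = 0.18), but it was without RES 4W replicate 1, whose spread enters the model (SE 0.23, adjusted p = 0.011).

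Cyp4a12b and Cyp4a31 were called only after 4 weeks of restriction. The Cyp4a12b probe read 7.29, 7.18, 7.57 and 7.46 in CON 1W, 6.83, 7.50, 6.89 and 7.40 in RES 1W, 7.43, 6.74 and 7.33 in CON 4W, and 9.24, 8.71, 8.32 and 7.75 in RES 4W. All RES 4W arrays lay above the other 3 groups, which overlapped each other, at 2.53-fold over CON 4W (log2 1.34, SE 0.28, adjusted p = 0.017, or 1.09 without replicate 1). The Cyp4a31 probe read 8.79, 9.30 and 9.39 in CON 4W and 10.12, 9.97, 9.96 and 9.91 in RES 4W, a 1.78-fold rise (log2 0.83, SE 0.19, adjusted p = 0.026). The first call was lost without CON 4W replicate 2 or RES 4W replicate 2 (adjusted p = 0.056 to 0.06), and the second without CON 4W replicates 1 or 2 or RES 4W replicates 2, 3 or 4 (adjusted p = 0.05 to 0.1). Cyp4a12a and Cyp4a12b are near-identical genes whose probes may read each other, yet their probes differed in sign both with age (3.88 and -0.21) and at 4 weeks of restriction (-0.89 and 1.34). Of these changes only the 3.88 and the 1.34 were called. The -0.21 had an adjusted p of 0.76 and the -0.89 one of 0.13.

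**Figure D4:**
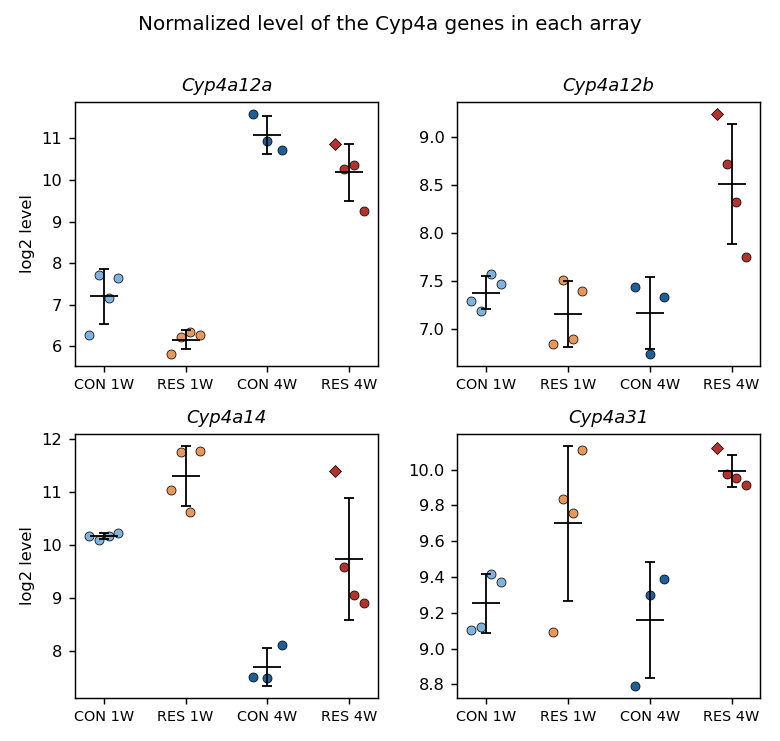
Normalized log2 level (vertical axis, different range in each panel) of the 4 Cyp4a genes in each array of the 4 groups. Points are arrays, the diamond is RES 4W replicate 1, and the line with bars is the group mean with its SD. In Cyp4a12b, Cyp4a14 and Cyp4a31 all RES 4W arrays sit above all CON 4W arrays.

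Cyp4b1, a hydroxylase of short and medium fatty acids, and the probe annotated to the pseudogene Cyp4b1-ps2 moved together. The Cyp4b1 probe read 13.26, 13.18, 13.29 and 13.12 in CON 1W, 13.02, 12.68, 12.77 and 13.01 in RES 1W, 14.24, 14.07 and 14.10 in CON 4W, and 13.77, 14.09, 13.94 and 13.67 in RES 4W. The age difference was 1.89-fold (log2 0.92, SE 0.12, adjusted p = 0.00035), and the older mice lay above the younger without overlap. RES 1W lay below CON 1W on every array, but the difference of -0.34 was not called (adjusted p = 0.12), nor was the -0.27 at 4 weeks (adjusted p = 0.17). The Cyp4b1-ps2 probe changed by 0.77 with age (SE 0.10, adjusted p = 0.00047) and by -0.26 at each duration of restriction (adjusted p = 0.2 and 0.13). Whether it reads the pseudogene or the gene itself cannot be told from these data.

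The Cyp4f genes, which inactivate leukotrienes and oxidize long fatty acids, and Cyp4v3 were not called by their brightest probes. Of 9 Cyp4f genes on the array 5 were tested, and their changes were -0.15 to 0.39 with age, -0.03 to 0.22 at 1 week and -0.05 to 0.17 at 4 weeks. A second, dimmer Cyp4f16 probe read 4.53, 4.62 and 4.45 in CON 4W and 5.40, 5.51, 5.17 and 5.31 in RES 4W. It was detected on none of the CON 4W and all of the RES 4W arrays, a rise of at least 1.38-fold (adjusted p = 0.0047). The brighter Cyp4f16 probe changed by 0.14 (adjusted p = 0.63), so the 2 probes of this gene disagreed. Over probes rather than genes, 14 of 50 were higher and 1 lower with age (2.97% of all probes called, 1.18% higher and 1.79% lower). They were 9 and 2 at 1 week (2.81%, 1.42% higher and 1.38% lower), 6 and 4 at 4 weeks (6.49%, 3.63% higher and 2.86% lower), and 2 and 1 for the difference between the restriction effects (0.583%, 0.368% higher and 0.215% lower).

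Of the epoxygenases, which turn arachidonic acid into epoxyeicosatrienoic acids, 1 of 13 Cyp2c genes and 3 of 7 Cyp2j genes were tested. Cyp2j13 was the one member of the 40 called in all 3 comparisons. Its probe read 9.93, 9.88, 10.01 and 9.97 in CON 1W, 9.34, 9.30, 9.23 and 9.16 in RES 1W, 10.82, 10.52 and 10.40 in CON 4W, and 10.37, 10.07, 10.07 and 9.96 in RES 4W. Restricted mice lay below their controls at both ages without overlap. The change with age was 0.63 (SE 0.12, adjusted p = 0.0071), that at 1 week -0.69 (SE 0.11, adjusted p = 0.0021) and that at 4 weeks -0.46 (SE 0.12, adjusted p = 0.034), or -0.55 (adjusted p = 0.0022) without RES 4W replicate 1. The 4-week call was lost without CON 4W replicates 1 or 2 or RES 4W replicates 2, 3 or 4 (adjusted p = 0.069 to 0.13), and the 1-week call held whichever array was left out.

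Cyp2c23, the counterpart of the main arachidonic acid epoxygenase of the rat kidney, changed by -0.14 with age and 0.09 at 1 week. At 4 weeks the probe read 10.05, 9.86 and 9.93 in CON 4W and 9.34, 9.55, 9.28 and 9.74 in RES 4W. The groups did not overlap, but the change of -0.47 (SE 0.15) was not called (adjusted p = 0.065). Cyp2j9 and Cyp2j11 were not called either, with changes at 4 weeks of -0.35 (adjusted p = 0.15) and -0.02 (adjusted p = 0.94). A dimmer Cyp2j11 probe changed by -0.52 (adjusted p = 0.082), and by -0.71 (adjusted p = 0.0013) without RES 4W replicate 1.

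Among the sterol and bile acid genes, Cyp7b1, which hydroxylates oxysterols and steroids such as dehydroepiandrosterone, was higher with age and lower after 1 week of restriction. The Cyp7b1 probe read 10.93, 10.90, 11.21 and 11.73 in CON 1W, 10.04, 10.06, 10.20 and 9.90 in RES 1W, 12.92, 12.65 and 12.77 in CON 4W, and 12.92, 12.89, 12.80 and 12.65 in RES 4W. RES 1W was the lowest group and did not overlap CON 1W, whereas the 2 groups of older mice lay in the same range. The age difference was 2.99-fold (log2 1.58, SE 0.16, adjusted p = 4.9e-05), the 1-week change -1.14 (SE 0.15, adjusted p = 0.00068) and the 4-week change 0.04 (SE 0.16, adjusted p = 0.91). The difference between the restriction effects was 1.18 (SE 0.22, adjusted p = 0.033).

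Cyp27a1, the mitochondrial sterol 27-hydroxylase, read 9.45, 9.44, 9.38 and 9.45 in CON 1W, 9.95, 9.84, 9.62 and 10.10 in RES 1W, 9.80, 9.75 and 9.72 in CON 4W, and 9.80, 10.20, 10.22 and 10.23 in RES 4W. RES 1W lay above CON 1W without overlap, by 1.37-fold (log2 0.45, SE 0.12, adjusted p = 0.047). RES 4W replicate 1 read within the range of the CON 4W arrays and the other 3 lay above it: the change was 0.36 (adjusted p = 0.09), and 0.46 (SE 0.11, adjusted p = 0.0064) without that array. Of its 3 probes, the second was called at 1 week (0.49, adjusted p = 0.018) and the third was not (0.41, adjusted p = 0.092), and at 4 weeks they changed by 0.24 and -0.16 (adjusted p = 0.21 and 0.47). The 1-week call of the brightest probe held when RES 1W replicate 3 or RES 4W replicate 1 was left out and was lost without any 1 of the other 13 arrays (adjusted p = 0.057 to 0.16). Cyp51, the lanosterol demethylase of cholesterol synthesis, changed by 0.46 with age (adjusted p = 0.16) and by -0.20 and 0.14 with restriction. Cyp39a1, an oxysterol hydroxylase, was not detected in CON 4W and was not called.

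Of the 40 genes, the largest change at 1 week of restriction was that of a vitamin D gene. Cyp24a1, the mitochondrial 24-hydroxylase that inactivates vitamin D, read 8.11, 7.84, 8.43 and 8.18 in CON 1W, 9.47, 10.35, 10.15 and 10.64 in RES 1W, 8.92, 8.65 and 8.31 in CON 4W, and 9.97, 8.54, 7.05 and 7.97 in RES 4W. RES 1W lay far above CON 1W, at 4.05-fold (log2 2.02, SE 0.42, adjusted p = 0.015), a call that was lost without RES 1W replicate 4 (adjusted p = 0.061). RES 4W spread widely around CON 4W, from replicate 3 at the bottom to replicate 1 at the top. The 4-week change was -0.24 (SE 0.46, adjusted p = 0.79), and -0.77 (SE 0.32, adjusted p = 0.095) without replicate 1. The difference between the effects was -2.26 (adjusted p = 0.086), and -2.79 (SE 0.43, adjusted p = 0.00066) without that array.

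Cyp27b1, the 1-alpha-hydroxylase that makes active vitamin D, was not called in any comparison. Its group means were 5.94 ± 0.62 (SD, n = 4) in CON 1W, 5.97 ± 0.62 (SD, n = 4) in RES 1W and 5.26 ± 0.39 (SD, n = 3) in the older controls. RES 4W averaged 4.88 ± 0.35 (SD, n = 4), and the probe was detected on 2 of the 4 RES 4W arrays and on all others. The 1-week change was 0.03 (adjusted p = 0.99). Vdr, the receptor through which vitamin D raises Cyp24a1, changed by 0.40 at 1 week (adjusted p = 0.081, or 0.038 without RES 4W replicate 1).

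**Figure D5:**
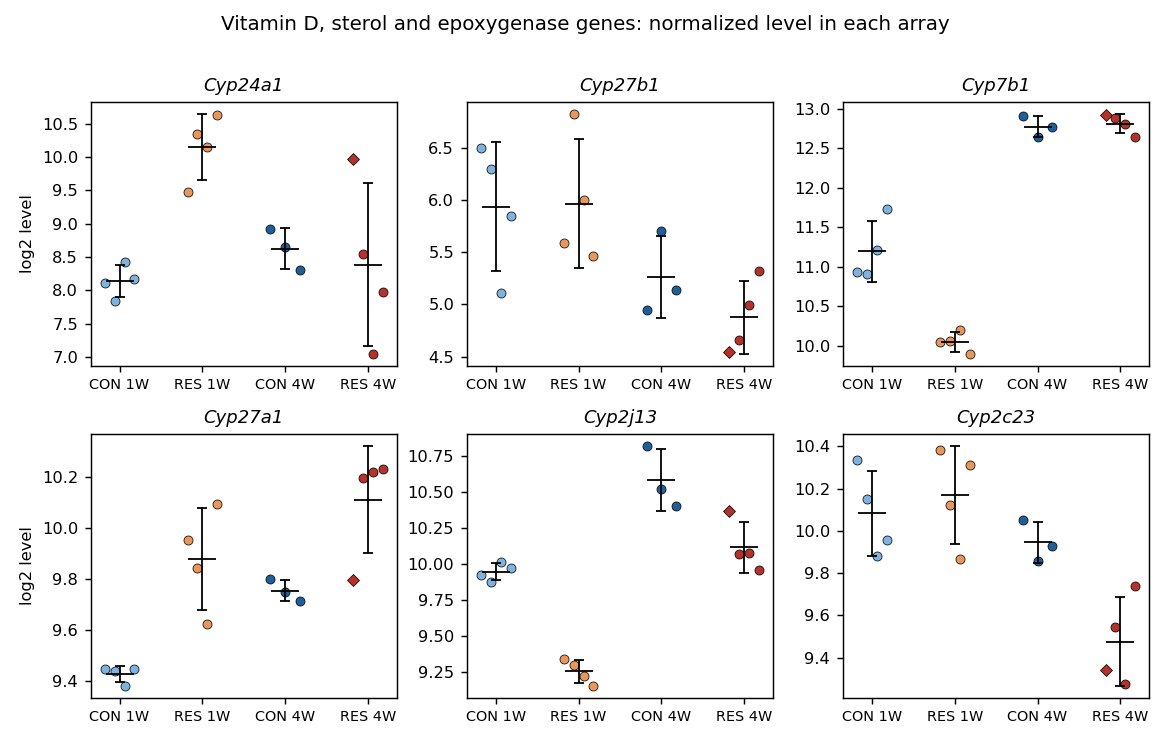
Normalized log2 level (vertical axis, different range in each panel) of vitamin D, sterol and epoxygenase genes in each array of the 4 groups. Points are arrays, the diamond is RES 4W replicate 1, and the line with bars is the group mean with its SD. Cyp24a1 in RES 1W (9.47 to 10.64) sits above CON 1W (7.84 to 8.43), and Cyp7b1 in RES 1W (9.90 to 10.20) below CON 1W (10.90 to 11.73).

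The remaining families had no called member. Cyp11b2, the aldosterone synthase of the adrenal cortex, was detected on 9 of 15 arrays, and its changes were -0.08 with age, 0.18 at 1 week and 0.36 at 4 weeks (adjusted p = 0.88, 0.72 and 0.23). None of the other adrenal markers looked for (Star, Cyp11a1, Cyp11b1, Cyp21a1, Hsd3b1, Akr1b7, Mc2r, Nr5a1 and Fdx1) was tested. Cyp26b1, which breaks down retinoic acid, was detected on 3 arrays, the least that was accepted, as were Cyp2b23, Cyp2d40 and Cyp2u1, while 3 probes detected on 2 arrays were left out. Cyp20a1, an orphan P450, changed by -0.36 with age (adjusted p = 0.23). The 47 genes left untested included all of the Cyp17, Cyp21, Cyp46 and Cyp8 families, 12 of 13 Cyp2c genes and 6 of 7 Cyp3a genes.

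The difference between the restriction effects at 4 weeks and at 1 week was called for 2 of the 40 genes, Cyp7b1 (above) and Cyp2a5 (-1.02, SE 0.21, adjusted p = 0.04), with 0.572% of all genes called (0.314% higher, 0.258% lower). Cyp2a5 changed by 0.42 at 1 week (adjusted p = 0.15) and by -0.60 at 4 weeks. Its other 4 probes gave differences of -0.42, -0.58, -0.52 and -0.78, none of them called (adjusted p = 0.58, 0.33, 0.38 and 0.11). The call of its brightest probe was lost without any 1 array other than RES 1W replicate 3 and RES 4W replicate 1 (adjusted p = 0.051 to 0.093). That of Cyp7b1 was lost without CON 1W replicate 3, RES 1W replicates 1, 3 or 4, any CON 4W array or RES 4W replicates 2, 3 or 4 (adjusted p = 0.05 to 0.075). Without RES 4W replicate 1, 8 genes were called, among 13.2% of all genes (5.7% higher, 7.52% lower). Cyp4a12b, Cyp2d26 and Cyp7b1 had a higher effect at 4 weeks, and Cyp24a1, Cyp2a4, Cyp2a5, Cyp2d10 and Cyp2e1 a lower one. For Cyp2a4 the effect at 1 week was read near the detection limit.

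Proteins that serve the P450 enzymes were read from the same arrays. Over all genes, 3.42% were called with age, 3.4% at 1 week and 5.83% at 4 weeks. Without RES 4W replicate 1 these shares were 5.15%, 5.07% and 21.5%. Of 6 tested electron donors and membrane anchors out of 10 looked for, Cyb5r3, the cytochrome b5 reductase, was higher with age (0.39, adjusted p = 0.044) and lower after 4 weeks of restriction (-0.35, adjusted p = 0.046). Cyb5a, the cytochrome b5 that hands electrons to several P450 enzymes, was also lower after 4 weeks (-0.42, adjusted p = 0.024), and none of the 6 was called at 1 week (0 at an unadjusted p under 0.05). Cyb5r1 was called lower at 4 weeks as well when RES 4W replicate 1 was left out (-0.73, adjusted p = 0.0078). The reductase Por itself was not tested. Their median changes were 0.21 with age, 0.03 at 1 week and -0.23 at 4 weeks. Of 12 tested genes of heme synthesis and breakdown out of 13, limma called 0 in the 3 comparisons, where 2, 1 and 3 had an unadjusted p under 0.05, Alas1, the rate-limiting enzyme, changing by -0.35, -0.14 and 0.29 (adjusted p = 0.18, 0.69 and 0.17). Uros, which forms uroporphyrinogen, was called lower at 4 weeks with RES 4W replicate 1 left out (-0.76, adjusted p = 0.0029). Of 14 tested receptors and cofactors out of 24, limma called 0 in the 3 comparisons, where 2, 5 and 2 had an unadjusted p under 0.05, Ppara with changes of -0.11, -0.37 and -0.09 and Ppargc1a with 0.61 at 4 weeks (adjusted p = 0.052) among them. Ppargc1a, a coactivator of PPAR alpha, was called higher when RES 4W replicate 1 was left out, at 1 week (0.39, adjusted p = 0.033) and at 4 weeks (0.83, adjusted p = 0.00012), as was Arnt, the partner of the aryl hydrocarbon receptor, at 4 weeks (0.54, adjusted p = 0.0048). The glucocorticoid receptor Nr3c1 was not tested.

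Of the 6 epoxide hydrolases and P450 enzymes with other symbols, all tested, Ephx2, the soluble hydrolase that removes epoxyeicosatrienoic acids, was higher with age (0.54, adjusted p = 0.022). Ptgis, the P450 that makes prostacyclin, was higher after restriction at 1 week (0.52, adjusted p = 0.04) and at 4 weeks (0.55, adjusted p = 0.033). Tbxas1, which makes thromboxane, was lower at 1 week (-0.67, adjusted p = 0.011). The summed level of the 3 tested macrophage markers of 5 was 651.7 to 805.1 in RES 1W against 1095 to 1279 in CON 1W, 1683 to 2193 in CON 4W and 1499 to 1949 in RES 4W, and 1 of the 3, Cd74, was called lower at 1 week (-0.77, adjusted p = 0.0045). Their part in this result was not tested. Ephx1 (0.38, adjusted p = 0.034) was called higher at 4 weeks and Ephx2 (-0.47, adjusted p = 0.0025) lower when RES 4W replicate 1 was left out. Of 14 tested conjugating enzymes out of 22, Ugt1a10, Ugt1a6a and Ugt1a7c were higher with age (0.47, 0.86 and 0.80) and the sulfotransferase Sult1a1 was lower (-0.71, adjusted p = 0.014). After 1 week of restriction Ugt1a2 was detected on 4 of 4 arrays against 0 of 4 in CON 1W, at least 1.87-fold higher (adjusted p = 0.0037). At 4 weeks Sult1a1 was higher (0.60, adjusted p = 0.029) and none was lower. Without RES 4W replicate 1, 4 of the 14 were higher at 4 weeks and 2 lower, Ugt2b36 (-1.12, adjusted p = 0.0012) and Ugt1a6a (-0.78, adjusted p = 0.015). That setting called 9.71% of all genes higher at 4 weeks and 11.8% lower. The Ugt1a probes may share sequence, since these genes have exons in common.

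Markers of the proximal tubule, where most of these genes are used, were all tested, 11 of the 12 being detected on every array and Cubn on 7 of 15. With age, 1 of the 12 (Slc5a12, -0.54) was called lower, against 2.06% of all genes. With restriction 2 were lower at 1 week (Slc22a6, -0.49, and Acsm3, -0.73), against 1.61% of all genes. At 4 weeks 2 were higher (Slc5a2, 0.96, and Slc5a12, 0.62), against 2.68% of all genes. Without RES 4W replicate 1 it was 1 higher and 2 lower with age (2.3% and 2.85% of all genes). At 4 weeks it was then 2 higher and 3 lower (9.71% and 11.8% of all genes). The lower ones at 4 weeks were Slc22a6 (-0.36, adjusted p = 0.022), Slc22a7 (-0.96, adjusted p = 0.00018) and Kap (-0.72, adjusted p = 0.00089). The summed level of the 12 markers on the linear scale was 58180 to 63090 in CON 1W and 48260 to 53490 in RES 1W. It was 64950 to 68120 in CON 4W and 57120 to 65340 in RES 4W, so RES 1W was the lowest group without overlap. The part of this in the changes of the P450 genes was not tested. Of liver markers, Alb, Fgb and Cyp2c29 had no probe detected on at least 3 of 15 arrays and were not tested. Of 5 tested, 1 was lower with age (Apoc3, -1.74), and 1 was higher and 1 lower at 4 weeks (Apoa2, 0.52, and Ttr, -1.06). Without RES 4W replicate 1, 2 were higher at 1 week (2.68% of all genes), and 2 were higher and 1 lower at 4 weeks (9.71% and 11.8%). The summed level of the 5 was 2859 to 4751 in CON 1W, 2903 to 3328 in RES 1W, 2858 to 4004 in CON 4W and 1764 to 3080 in RES 4W. The collecting duct marker Aqp2, the water channel that vasopressin raises, was higher at 1 week (1.46, adjusted p = 0.002) and 4 weeks (2.11, adjusted p = 0.0007).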

How the data were processed

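Whole kidney RNA of 15 mice was hybridized to Illumina MouseWG-6 BeadChips, 1 mouse per array. The deposited intensity of each probe had been background-subtracted and quantile-normalized by the authors (GenomeStudio 1.0.2), and 34.9% of values lie at or below 0. A detection p-value against negative control beads, also deposited, stands beside each. A separate deposited table holds log2 of these intensities, with values under 5 left out by the authors. Slide and scan time were not given in the sources used here.

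From the intensities, neqc (limma 3.58.1, R 4.3.3) gave log2 levels by a further normexp correction with an offset of 16 and quantile normalization. Probes detected at p under 0.05 on at least 3 arrays were tested: 19027 of 45281. The 4 group means were fitted with lmFit and eBayes, two-sided, with Benjamini-Hochberg adjustment over the tested probes. Every adjusted p given is from limma unless another test is named. The procedure was tested on simulated data. Alternatives changed the values used, background correction, offset, normalization, filter, probe, test, threshold, prior, weights, replicate block or 1 array at a time. A probe with no detected array in a group has only a bound there. Names came from the platform annotation, and all 129 cytochrome P450 probes matched a current symbol by gene ID. Promoters were taken from RefSeq (GRCm38.p6), which held 27 of the 40 genes, and aligned with Biopython 1.88. No protein sequences were used.

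The members and gene lists were chosen with earlier results of these data known. Named were every called gene, the 6 examples in the selection rule (Cyp2a4, Cyp2e1, Cyp4a12a, Cyp4a14, Cyp4b1 and Cyp7b1), the gene with the smallest adjusted p in families with none called, members of the same role class, and up to 4 genes of each partner list. Values of second probes, of markers, and of Ppara, Ugt1a6a and partner genes called only without RES 4W replicate 1 were chosen after they were seen.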

Additional observations from a re-analysis of the deposited data

Results flagged for a closer look

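Among 78 groups of 4 arrays of the named genes, 4 held 1 array far from the other 3, by a gap over the critical value of Dixon's test, where chance gives about 1 in 20. Of these, 3 were RES 4W replicate 1: Cyp1b1 (5.67 against 4.72 to 4.87, gap 0.838), Cyp27a1 (9.80 against 10.20 to 10.23, gap 0.915) and Cyp2d10 (6.78 against 6.16 to 6.19, gap 0.963). The other was CON 1W replicate 3 for Cyp27a1, at 9.38 against 9.44 to 9.45 (gap 0.885), in a group whose SD was 0.03. The 4 of 78 groups are near the share that chance gives.

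The restriction effect differed between the 2 durations, by the interaction term in limma, for Cyp7b1 (1.18, SE 0.22, adjusted p = 0.033) and for the brightest of 5 Cyp2a5 probes (-1.02, SE 0.21, adjusted p = 0.04).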

How the results depend on the processing

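No result of the 26 named genes turned its direction on a called value, and the 28 calls were held in 629 of 778 trials of an alternative and missed in 149. With age 11 genes were called, and 5 by the methods' t-test, which called 79 probes in all, against 565. At 1 week 8 were called, against 3 with no filter on dim probes, 3 by the methods' ANOVA, 2 by the methods' t-test and 3 at the methods' thresholds (adjusted p under 0.01 and fold over 1.5). Over all probes 534 were called at 1 week, against 481 with no filter, 511 by the ANOVA and 115 by the t-test. At 4 weeks 7 were called, against 4 with no filter, 13 with array weights (which called 5129 probes in all, against 1235), 2 by the ANOVA and 1 at the methods' thresholds. Limma on only the groups compared and the methods' t-test each called 0 there, with 14 and 11 genes at an unadjusted p under 0.05. Over all probes they called 3 and 0, against 510 with no filter, 400 by the ANOVA and 1235 by limma on all 4 groups. For the difference of effects 2 were called, against 1 from log2 of the deposited intensity plus 16, 1 from the authors' processed values, 4 with an offset of 50, 4 with a stricter filter, 8 with array weights (2878 probes in all, against 111) and 4 with a trended and robust prior. Over all probes these settings called, in the same order, 75, 53, 268, 288, 2878 and 309. With no filter, by the ANOVA and at the methods' thresholds 0 genes were called, with 10, 10 and 9 genes at an unadjusted p under 0.05. No filter and the ANOVA called 27 and 23 probes in all.

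Leaving out each array in turn gave 10 to 12 genes with age, 3 to 9 at 1 week (3 without RES 1W replicate 4), 2 to 11 at 4 weeks (2 without CON 4W replicate 2 or RES 4W replicate 2, 11 without RES 4W replicate 1) and 0 to 8 for the difference (8 without RES 4W replicate 1). The causes were not tested. Replicate numbers did not pair the samples: deviations of 21 same-numbered pairs correlated between -0.118 and 0.186, 1 of them over 0.1, and 3 of 15 arrays correlated best with their own number. With the replicate number as a block, 11, 6, 7 and 1 genes were called. Probes near background, such as Cyp2f2, or Cyp2a4 in the younger mice, have compressed fold changes.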
